A study of Mus musculus with 15 samples.

Results

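The genes described here serve the endoplasmic reticulum (ER) stress response and the early secretory pathway, and were measured in knee joint synovium of mice with collagen-induced arthritis. The list holds 37 genes chosen by name, with earlier results of these data known. A gene was read from a probe set that the array annotation assigns to a single symbol, and where a gene had several such probe sets the one with the highest mean over all arrays was used. This gave 36 measured genes of the 18193 genes named in this way. The remaining gene, Sec61g, was matched only by a probe set shared with other symbols and was not measured here. All 36 genes passed the filter on dim probe sets, as did 14314 of the 18193 genes.

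The 15 arrays fell into 5 groups of 3: naive synovium, labelled healthy, and synovium from arthritic mice graded by joint swelling as none, mild, moderate or severe. Immunization on day 0 used type II collagen (100 µg) in FCA, and a boost of 100 µg followed on day 21 by the i.p. route. The same protocol text is attached to the naive arrays. It was read as written for the whole series, and if it does apply to the naive mice the comparisons with them are not comparisons with unimmunized animals. The labels give no strain, age or pooling and do not say that replicates came from separate animals, so the spread behind every p-value is that between arrays and may be technical. Signals are MAS5 intensities on a linear scale, means are given ± SD with n = 3 arrays, and changes are log2 fold changes ± SE of log2(signal + 16). A gene is said to have risen or fallen where limma gave an adjusted p under 0.05 over all genes tested, and such a gene is counted as called.

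Tissue markers were checked before the groups were compared. The synovial genes Prg4, the lubricin of the joint surface, and Pdpn, a glycoprotein of lining fibroblasts, were present at 2369 ± 422 and 227 ± 7.06 in naive samples. Skeletal muscle genes were also strong, with Acta1, the actin of muscle fibres, at 10603 ± 1317, so the dissected tissue was mixed. In such bulk samples a change in the number of cells of a type and a change in RNA per cell cannot be told apart. Median signals per array ranged from 36.3 to 47.6, and the main axis of variation over all genes carried 70.3% of the variance, on which the mild replicate 2 array lay at -7.42 against 36.02 for the highest array of its group.

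Proteins bound for secretion enter the ER through the Sec61 channel, fold with the help of lumenal chaperones and disulfide isomerases, and leave in COPII-coated vesicles. Escaped chaperones are returned from the Golgi by KDEL receptors, and proteins that fail to fold are sent for degradation. When unfolded proteins accumulate, the membrane sensors IRE1 (Ern1), PERK (Eif2ak3) and ATF6 start the unfolded protein response, which raises chaperone transcription and, through PERK, slows translation and induces Atf4 and Ddit3. Synovial fibroblasts, chondrocytes and plasma cells are all known for heavy secretion.

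Most of these genes were higher in swollen joints than in naive synovium. At severe swelling 26 of the 36 rose and 3 fell, while 7 did not pass the test. Over all genes tested in that comparison 32.3% rose and 22.9% fell. The median change of the 36 genes was 0.98 on the log2 scale, against 0.11 for all genes tested. Because the genes were chosen with earlier results of these data known, this contrast with all genes is not an independent test. The genes that rose ranged from 1.32-fold (Ern1) to 8.26-fold (Kdelr3) in the ratio of mean signals. The 3 that fell were Herpud1, Sec23a and Dnajb9, and all of them lost the call when arrays were scaled on spiked hybridization controls, where the split was 26 higher and 0 lower and the median of all genes stood at 0.53. Aligning array medians moved the split the other way, to 22 higher and 5 lower, with Atf4 and Ddit3 added to the genes that fell and a median of all genes of -0.05.

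**Figure D1:**
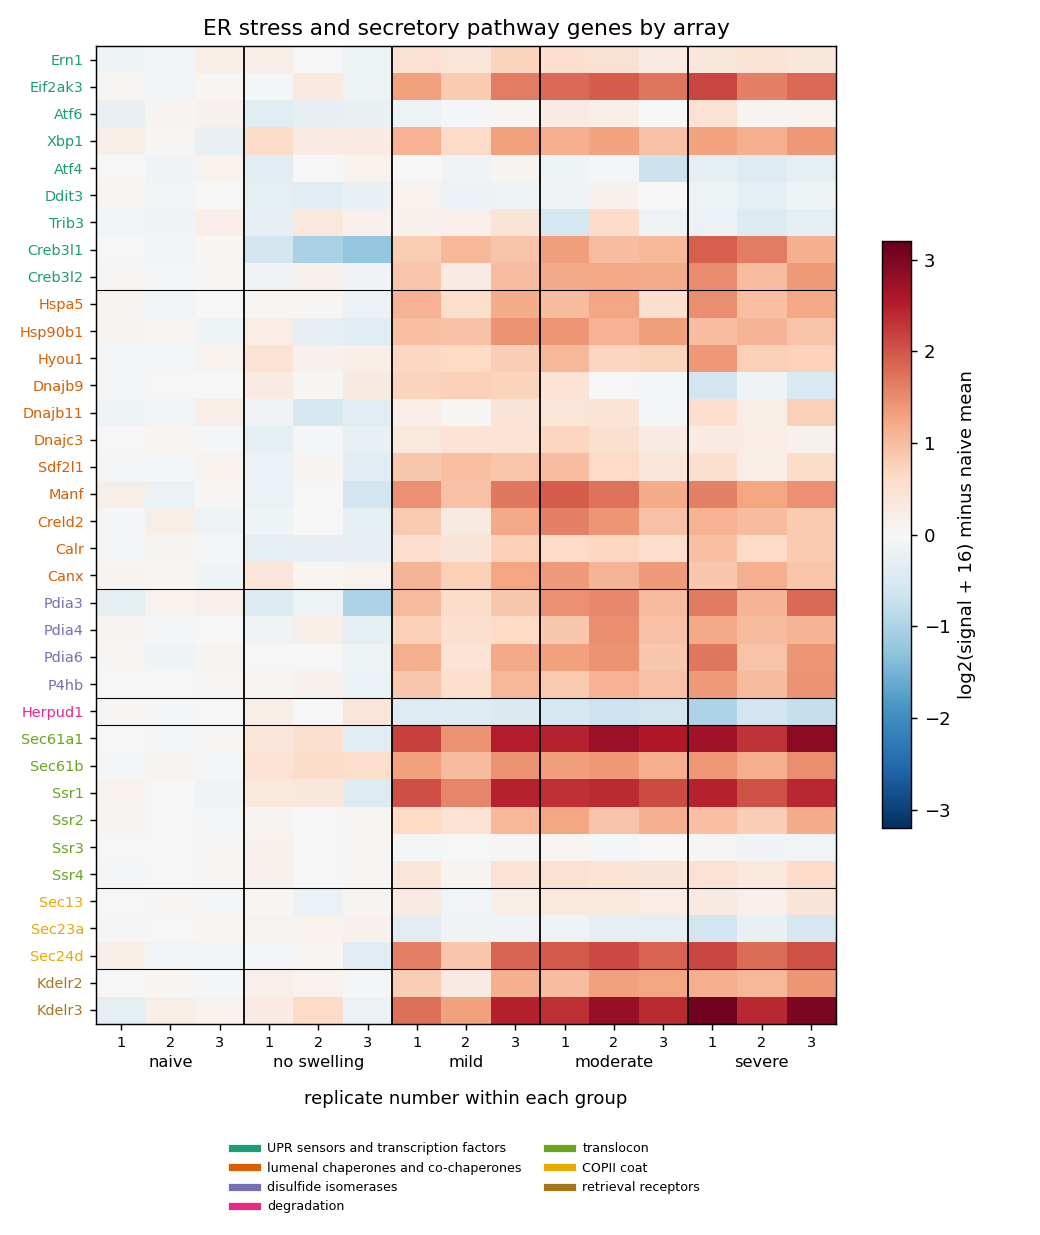
Heat map of log2(signal + 16) minus the naive mean for the 36 genes (rows, grouped and coloured by role) on each of the 15 arrays (columns, by group and replicate number). The mild, moderate and severe arrays are red for most rows, the no-swelling arrays are pale for most rows but blue for Creb3l1, and Herpud1 is blue at every swollen grade.

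**Figure D2:**
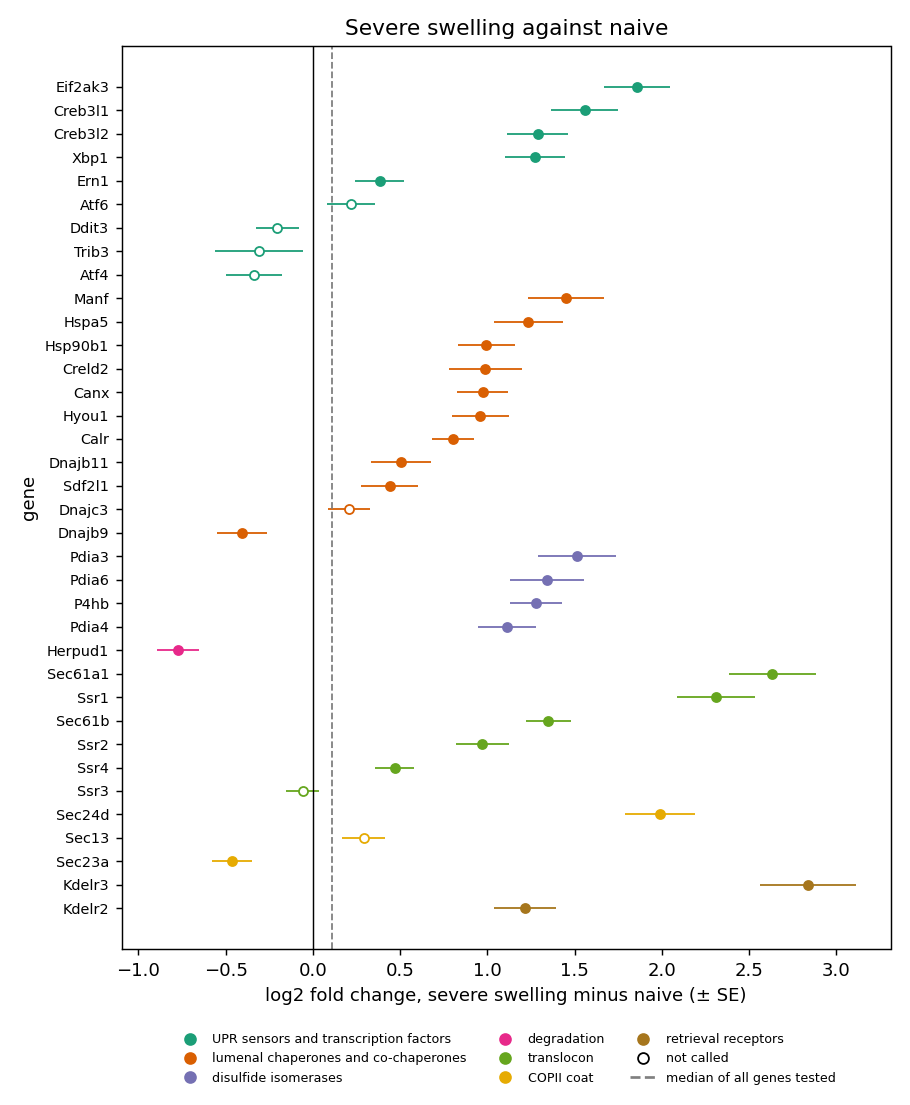
Log2 fold change, severe swelling minus naive, for each of the 36 genes (points, ± SE of the limma fit, n = 3 arrays per group), coloured by role. Filled points passed the test at an adjusted p under 0.05 and open points did not; the dashed line marks the median of all genes tested, 0.11.

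Among the sensors and transcription factors, 5 of 9 rose at severe swelling and none fell (Ern1, Eif2ak3, Xbp1, Creb3l1 and Creb3l2). Eif2ak3, the kinase that phosphorylates eIF2alpha, gave signals of 97.6, 88.6 and 99 in naive arrays and 476, 325 and 373 at severe swelling. Every severe array was above every naive array, and the change was 1.86 ± 0.19 (adjusted p = 1.18e-06). The other 2 probe sets of Eif2ak3 were below the filter, and with the mean of all its probe sets the change was 0.44 (adjusted p = 0.0743). Ern1, the kinase and RNase that splices Xbp1 mRNA, moved from 144, 149.8 and 189.6 to 209, 221 and 210.1. Its groups did not overlap, but the change was small at 0.38 ± 0.14 (adjusted p = 0.0307). That call needed 5 of the 6 arrays, being lost on omitting naive replicates 1 and 2 (adjusted p = 0.117 and 0.0964) and severe replicates 1, 2 and 3 (adjusted p = 0.0569, 0.0736 and 0.0578). None of the dimmer Ern1 probe sets that were tested passed. With the mean of all its probe sets the Ern1 change was 0.29 (adjusted p = 0.0608).

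Xbp1, the transcription factor whose spliced form drives ER expansion in secretory cells, rose from 1090.5, 991 and 810 to 2371, 2122 and 2534, with no overlap (1.27 ± 0.17, adjusted p = 1.41e-05). All 4 of its probe sets passed the test in the same direction. The arrays give total Xbp1 mRNA, and splicing was not measured. Atf6, the sensor that is cleaved in the Golgi, was read at 203, 255 and 268 and 337, 255 and 262, with overlapping groups and a change of 0.22 ± 0.14 (adjusted p = 0.192). A dimmer Atf6 probe set did pass the test, at 0.61 ± 0.18 (adjusted p = 0.0108). The dimmest did not, at -0.44 ± 0.24 (adjusted p = 0.134). Against unswollen joints of immunized mice the brightest one rose by 0.50 ± 0.14 (adjusted p = 0.00526). That call was lost with array medians aligned (adjusted p = 0.111) and with the mean of the gene's probe sets (0.24, adjusted p = 0.146).

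Creb3l1 and Creb3l2 encode OASIS and BBF2H7, membrane-bound factors of the ATF6 type known for their part in matrix secretion by bone and cartilage cells. Creb3l1 signals were 131, 122 and 138 in naive arrays, 81, 54.9 and 46.1 without swelling, 241, 289 and 261 at mild, 356, 274 and 289 at moderate and 530.5, 438 and 306 at severe swelling. The no-swelling arrays were the lowest of all and every swollen array was above every naive one. Against naive the change was 1.56 ± 0.19 at severe swelling (adjusted p = 5.81e-06), and against no swelling it was 2.52 ± 0.19 (adjusted p = 4.17e-07). Creb3l2 was 196, 181 and 195 in naive arrays and 577, 393 and 512 at severe swelling, again with no overlap (1.29 ± 0.17, adjusted p = 1.42e-05).

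None of the 3 effectors downstream of PERK passed the test at severe swelling, although 2 of them were called lower under some alternative settings. Atf4, the factor translated when eIF2alpha is phosphorylated, had signals of 2074, 1900.1 and 2211 in naive and 1678, 1538 and 1662 in severe arrays. The severe arrays were all lower, but the change of -0.34 ± 0.16 did not pass the test (adjusted p = 0.0863). Ddit3, which encodes the pro-apoptotic factor CHOP, was 166, 148 and 158 in naive and 139, 124 and 141 in severe arrays (-0.20 ± 0.12, adjusted p = 0.182). Trib3, a pseudokinase induced by both factors, was dim in all groups, at 40.7, 39.3 and 53.5 and 37.1, 28.6 and 32.5 (-0.31 ± 0.25, adjusted p = 0.32). With hybridization-control scaling these 3 changes turned positive, at 0.17, 0.26 and 0.06, and none passed the test. Atf4 was called lower with array medians aligned (-0.50, adjusted p = 0.0212) and with only the compared groups fitted (adjusted p = 0.0241). Ddit3 was called lower with array medians aligned (-0.36, adjusted p = 0.0238) and with quantile normalization (-0.38, adjusted p = 0.016). A dimmer Ddit3 probe set went the other way without passing the test (0.79 ± 0.32, adjusted p = 0.0537). With the mean of its probe sets the Ddit3 change was 0.29. Atf4 is controlled in large part at translation, which these arrays did not measure.

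The lumenal chaperones and co-chaperones rose broadly, with 9 of 11 higher and 1 lower at severe swelling. Hspa5 encodes BiP, the main Hsp70 of the ER and a standard readout of the stress response. Its signals were 1731, 1541 and 1656 in naive arrays, 1723, 1698 and 1450 without swelling, 3585, 2429.6 and 3776 at mild, 3334, 3939 and 2351 at moderate and 4649.8, 3221 and 3912 at severe swelling. All swollen arrays were above all arrays of naive and unswollen joints, and the severe change was 1.24 ± 0.20 (adjusted p = 6.4e-05), a 2.39-fold ratio of means.

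Hsp90b1, the ER form of Hsp90 known as GRP94, rose from 971, 961 and 834 to 1828, 1966 and 1752 (0.99 ± 0.16, adjusted p = 9.3e-05). Manf, a small secreted and ER-resident partner of BiP, rose from 346, 258 and 314 to 968, 751 and 869 and showed the highest change of this role (1.45 ± 0.22, adjusted p = 3.89e-05). The groups overlapped for neither gene. Hyou1, the large Hsp70 relative that exchanges nucleotide on BiP, changed by 0.96 ± 0.16 (adjusted p = 0.00013), and Creld2, an ER-resident protein induced by stress, by 0.99 ± 0.21 (adjusted p = 0.000828). The lectin chaperones of glycoprotein folding also rose, calreticulin (Calr) from 2099 to 3695 (0.81 ± 0.12) and calnexin (Canx) from 951 to 1884 (0.97 ± 0.15).

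Among the J-domain partners of BiP and their companion Sdf2l1 the changes were smaller or did not pass the test. Dnajb11 (ERdj3) had signals of 322, 330.4 and 415 in naive and 523, 412 and 609 in severe arrays, and these ranges overlapped although the change passed the test (0.51 ± 0.17, adjusted p = 0.0204). Its call was lost on omitting naive replicate 1, naive replicate 2, severe replicate 1 or severe replicate 3 (adjusted p = 0.0767, 0.0678, 0.0559 and 0.103). Sdf2l1, which acts with Dnajb11, rose from 83.7, 86.3 and 97 to 133, 106 and 142 (0.44 ± 0.16, adjusted p = 0.0308), and that call was lost without the same 4 arrays (adjusted p = 0.0869, 0.0747, 0.0856 and 0.111). Its mild arrays read 174, 189.5 and 179, above the severe ones, but severe against mild did not pass the test (-0.47 ± 0.16, adjusted p = 0.0704). Dnajc3 (p58IPK), an inhibitor of PERK as well as a co-chaperone, was 472, 501 and 461 in naive and 575, 562 and 525 in severe arrays (0.21 ± 0.12, adjusted p = 0.161). At moderate swelling it had risen by 0.49 ± 0.12 (adjusted p = 0.0027). A dimmer Dnajc3 probe set did pass the test at severe swelling, at 0.50 ± 0.15 (adjusted p = 0.0101), and the others did not.

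Dnajb9 (ERdj4), the J-domain protein that represses IRE1 through BiP, was higher at mild and lower at severe swelling. Its signals were 1072, 1116 and 1106 in naive arrays, 1309, 1135 and 1355 without swelling, 1819.6, 1882 and 1814 at mild, 1489.6, 1110.4 and 1042 at moderate and 716, 996 and 784 at severe swelling. The 3 mild arrays were the highest of all 15, and the 3 severe arrays were the lowest. Against naive it rose at mild swelling (0.74 ± 0.14, adjusted p = 0.000822) and fell at severe swelling (-0.41 ± 0.14, adjusted p = 0.0239). The fall against naive was lost on omitting naive replicate 2, naive replicate 3, severe replicate 1 or severe replicate 3 (adjusted p = 0.0624, 0.0601, 0.113 and 0.0719) and turned to 0.10 with hybridization-control scaling.

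**Figure D3:**
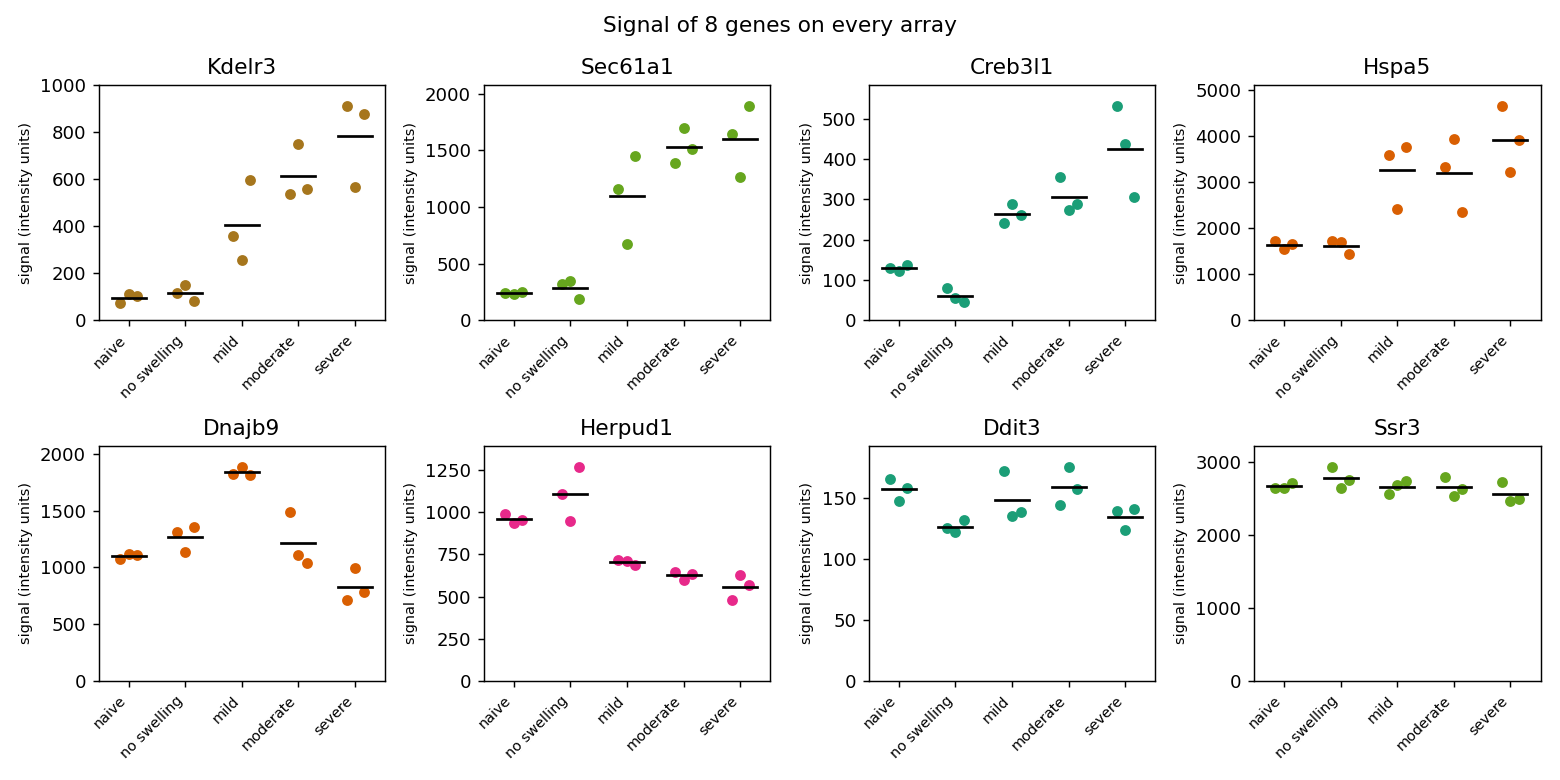
Signal (linear intensity units, axes from 0) of 8 genes on every array, 1 point per array, with a bar at the mean of each group of 3. Kdelr3, Sec61a1, Creb3l1 and Hspa5 are higher at the swollen grades, Dnajb9 is highest at mild swelling, Herpud1 is lower at the swollen grades, and Ddit3 and Ssr3 passed the test at no swollen grade against naive.

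The 4 disulfide isomerases all rose at severe swelling. Pdia3 (ERp57), the isomerase that works with calnexin and calreticulin, was 619.5, 826 and 853 in naive and 2429, 1618 and 2694 in severe arrays (1.51 ± 0.23, adjusted p = 3.69e-05). P4hb, which is both protein disulfide isomerase and the beta subunit of collagen prolyl 4-hydroxylase, rose from 2167, 2152 and 2220.1 to 5676, 4427 and 5967 (1.28 ± 0.15, adjusted p = 4.04e-06). Neither gene showed an overlap between these groups. The isomerases Pdia6 and Pdia4 rose by 1.34 ± 0.21 and 1.11 ± 0.16 (adjusted p = 6.91e-05 and 3.3e-05).

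Many chaperone promoters carry the ER stress response element (ERSE), bound by ATF6 and XBP1. It is CCAAT and CCACG with 9 bases of any kind between them. RefSeq windows on GRCm38.p6, from 250 bases before to 50 after each start, were found for 30 of the 37 genes and were searched on both strands. ERSE letters were present in 7 of the 30 genes (23.3%) and in 37 of 27025 genes with a window (0.137%). The element was first defined in promoters of chaperones such as Hspa5, so the matches are not independent of the choice of genes. Of the 7 genes, 6 rose at severe swelling and Dnajc3 did not pass the test, beside 26 that rose of all 36 measured genes. Whether the ERSE letters go with a rise was not tested. The 7 sequences are shown because they carry the element, found in some of the chaperones and co-chaperones and in the isomerase Pdia6. Dnajb9, Dnajb11 and Sdf2l1 had a window without ERSE letters. Capitals mark the matched letters, read along the gene's strand. Where the match lies on the other strand (Calr and Creld2) the capitals show the reverse complement of the element.
Hspa5: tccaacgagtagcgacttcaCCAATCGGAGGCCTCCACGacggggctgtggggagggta
Hsp90b1: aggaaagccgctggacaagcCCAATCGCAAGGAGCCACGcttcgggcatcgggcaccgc
Pdia6: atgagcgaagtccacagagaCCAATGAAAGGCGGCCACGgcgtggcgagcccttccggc
Calr: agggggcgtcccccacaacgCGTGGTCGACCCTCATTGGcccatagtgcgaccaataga
Canx: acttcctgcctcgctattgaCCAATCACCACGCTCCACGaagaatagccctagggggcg
Creld2: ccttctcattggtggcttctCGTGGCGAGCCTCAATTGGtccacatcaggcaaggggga
Dnajc3: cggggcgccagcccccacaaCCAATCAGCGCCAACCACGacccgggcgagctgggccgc
The Hspa5 stretch lies at chr2:34772005-34772063 (+ strand), upstream of the start, and its match ends 47 bases before the start. Hsp90b1 lies at chr10:86705618-86705676 (- strand) and has a further match, nearer to its start. Pdia6 is at chr12:17266471-17266529 (+), Calr at chr8:84847055-84847113 (-) and Canx at chr11:50325780-50325838 (-). Creld2 is at chr15:88819500-88819558 (+) and Dnajc3 at chr14:118937807-118937865 (+).

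Other elements of the response were rarer among these genes. ERSE-II, which is ATTGG and CCACG with a single base between them and so shares the CCACG letters with ERSE, were found in Dnajb11 and Herpud1 and in 0.0444% of all genes with a window. The core of the XBP1-bound element UPRE, TGACGTGG, whose reverse complement also holds CCACG, was found in Sec23a, Sec24d and Kdelr3 and in 0.714% of genes. The amino acid response letters TGATG and AAT with a single base between, the type of site bound by ATF4, matched none of the 30 windows and 1.08% of all genes; that says only that these letters are not in these windows. The short CCACG letters alone were in 70.0% of the 30 genes and 35.5% of all. Genes with either element moved in both directions at severe swelling: with ERSE-II letters Dnajb11 rose and Herpud1 fell, and with UPRE core letters Sec24d and Kdelr3 rose and Sec23a fell. The 3 stretches that lie upstream of the start are shown to place these letters, with the match in capitals.
Herpud1: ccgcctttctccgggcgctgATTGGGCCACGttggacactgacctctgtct
Sec24d: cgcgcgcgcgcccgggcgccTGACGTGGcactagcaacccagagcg
Kdelr3: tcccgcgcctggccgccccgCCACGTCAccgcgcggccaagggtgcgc
Herpud1 lies at chr8:94386357-94386407 (+), Sec24d at chr3:123267450-123267495 (+) and Kdelr3 at chr15:79516358-79516405 (+). No window was held for Atf6, Creb3l1, Hyou1, Kdelr2, Manf, Sec61a1 and Ssr2.

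Herpud1, the ER membrane protein that helps assemble the HRD1 degradation complex and is usually induced by ER stress, fell. Its signals were 991, 937 and 953 in naive arrays, 1105, 948 and 1266 without swelling, 718, 712 and 687 at mild, 647, 599.9 and 636 at moderate and 477, 629 and 571 at severe swelling. All 9 swollen arrays were below all 6 arrays of unswollen joints. The change at severe swelling was -0.77 ± 0.12 (adjusted p = 6.47e-05). Of the 18 alternative settings, only hybridization-control scaling removed the severe call, giving -0.27 (adjusted p = 0.57), and there the mild change turned to 0.20.

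The translocon had some of the highest changes of all 36 genes. Sec61a1, the pore-forming subunit, gave signals of 244, 229 and 248 in naive arrays, 322, 349.9 and 186 without swelling, 1156, 676 and 1446 at mild, 1390, 1693 and 1508 at moderate and 1643, 1263 and 1887 at severe swelling. The 9 swollen arrays were all above the 6 others, with mild replicate 2 the lowest of the 9. The severe change was 2.63 ± 0.25 (adjusted p = 6.3e-07), a 6.64-fold ratio of means. Sec61b, the small beta subunit, rose from 838, 929.6 and 856 to 2327, 1983 and 2476 (1.35 ± 0.13, adjusted p = 6.05e-07).

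The TRAP complex, encoded by Ssr1 to Ssr4, sits beside the channel and aids the entry of some proteins and their glycosylation. All 4 subunits were measured, and Ssr3 was the only one that did not pass the test. Ssr1 rose from 339.5, 318 and 289.6 to 1818, 1354 and 1741, a 5.19-fold ratio of means (2.31 ± 0.23, adjusted p = 7.95e-07). Ssr2 rose from 306, 285 and 277 to 575, 509 and 675 (0.97 ± 0.15, adjusted p = 5.89e-05). Ssr4 rose from 1094, 1134 and 1166 to 1554, 1426 and 1750.2 (0.47 ± 0.11, adjusted p = 0.0024). Ssr3 was read at 2649.9, 2642 and 2716 in naive and 2724, 2471 and 2497 in severe arrays, within overlapping ranges (-0.06 ± 0.10, adjusted p = 0.633). Differences between the subunits' changes were not tested. The sign of the Ssr3 change turned with quantile normalization (0.20), with hybridization-control scaling (0.45) and with the mean of its probe sets (0.09).

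The COPII coat was split. Sec24d, a cargo adaptor needed for procollagen export, rose from 145, 118 and 117 to 615, 474 and 568, with no overlap (1.99 ± 0.20, adjusted p = 9.96e-07). Sec23a, the inner coat subunit that pairs with the Sec24 adaptors, fell from 1207, 1230.5 and 1300.5 to 805, 1058 and 854 (-0.46 ± 0.12, adjusted p = 0.00298), and with hybridization-control scaling its change was 0.04. Sec13, an outer coat subunit also found in nuclear pores, was 532, 555 and 525 in naive and 662, 604 and 721 in severe arrays. The severe arrays were higher, but the change of 0.29 ± 0.12 missed the threshold (adjusted p = 0.0544). It was called higher in 6 of 18 alternatives, among them without severe replicate 2 (0.35, adjusted p = 0.0358) and with array quality weights (adjusted p = 0.0125).

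The KDEL receptors, which return escaped ER proteins from the Golgi, both rose. Kdelr3 had the highest change of the 36 genes. Its signals were 73.3, 110 and 102 in naive arrays, 115, 151 and 80.9 without swelling, 358, 257 and 596 at mild, 537, 748 and 557 at moderate and 909.7, 568 and 878 at severe swelling. The swollen arrays were all above the others, and the severe change was 2.84 ± 0.27 (adjusted p = 7.25e-07). Kdelr2 rose from 686, 729 and 675 to 1586, 1465 and 1892 (1.22 ± 0.18, adjusted p = 3.04e-05).

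The other swollen grades were compared with the same naive arrays, so these comparisons are not independent of each other. At moderate swelling 27 of the 36 genes rose and Herpud1 fell, against 30.9% and 23.8% of all genes, with a median change of 1.03. At mild swelling 27 rose and Herpud1 fell, against 23.1% and 17% of all genes, with a median change of 0.74. The Sec61a1 change was 2.04 ± 0.25 at mild, 2.59 ± 0.25 at moderate and 2.63 ± 0.25 at severe swelling. The Hspa5 change was 0.96 ± 0.20, 0.93 ± 0.20 and 1.24 ± 0.20 in the same order. By group mean, 19 genes were highest at severe, 9 at moderate and 4 at mild swelling. A further 3 were highest in unswollen joints of immunized mice and 1 in naive joints.

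In immunized joints without swelling few of these genes passed the test against naive joints. Only Sec61b rose and only Creb3l1 fell, against 1.52% and 1.76% of all genes. At an unadjusted p under 0.05 (limma) there were 6 of the 36 genes and 2704 of the 14314 genes tested. The Creb3l1 change was -0.96 ± 0.19 (adjusted p = 0.0142), with no overlap between the groups. It was lost without naive replicate 1 or 3 or no-swelling replicate 3 (adjusted p = 0.0558, 0.072 and 0.0528), and with hybridization-control scaling (adjusted p = 0.22). Sec61b had no-swelling signals of 1217, 1312 and 1287 against 838, 929.6 and 856 in naive arrays, a change of 0.53 ± 0.13 (adjusted p = 0.0339). Its call was lost when any 1 of the 6 arrays was left out, the adjusted p then ranging from 0.0661 (without no-swelling replicate 2) to 0.13 (without naive replicate 1).

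Of the steps between adjoining groups, that from no swelling to mild swelling, both in immunized mice, had the most calls. Over this step 26 genes rose and Herpud1 fell, against 23% and 15.6% of all genes, and the median change was 0.72 against 0.09 for all genes. The highest rises were in Ssr1 (1.94 ± 0.23, adjusted p = 3.21e-05), Creb3l1 (1.89 ± 0.19, adjusted p = 1.67e-05) and Sec61a1 (1.86 ± 0.25, adjusted p = 7.73e-05). Manf, Kdelr3 and Sec24d followed, at 1.63, 1.63 and 1.56. The mild replicate 2 array was the lowest of its group for 27 of the 36 genes; without it, 27 genes rose and 2 fell.

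From mild to moderate swelling no gene rose and only Dnajb9 fell, against 3.3% and 3.43% of all genes. The Dnajb9 change was -0.61 ± 0.14 (adjusted p = 0.0212), and it was lost without mild replicate 1 or 2 or moderate replicate 2 or 3 (adjusted p = 0.062, 0.0793, 0.0902 and 0.083). Without mild replicate 3, by contrast, 8 genes passed the test. From moderate to severe swelling limma called 0 of the 36 genes in either direction and 0% of all genes, with 3 of the 36 and 888 of the 14314 genes at an unadjusted p under 0.05. The median change of the 36 genes was 0.15 over the first of these steps and 0.02 over the second.

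**Figure D4:**
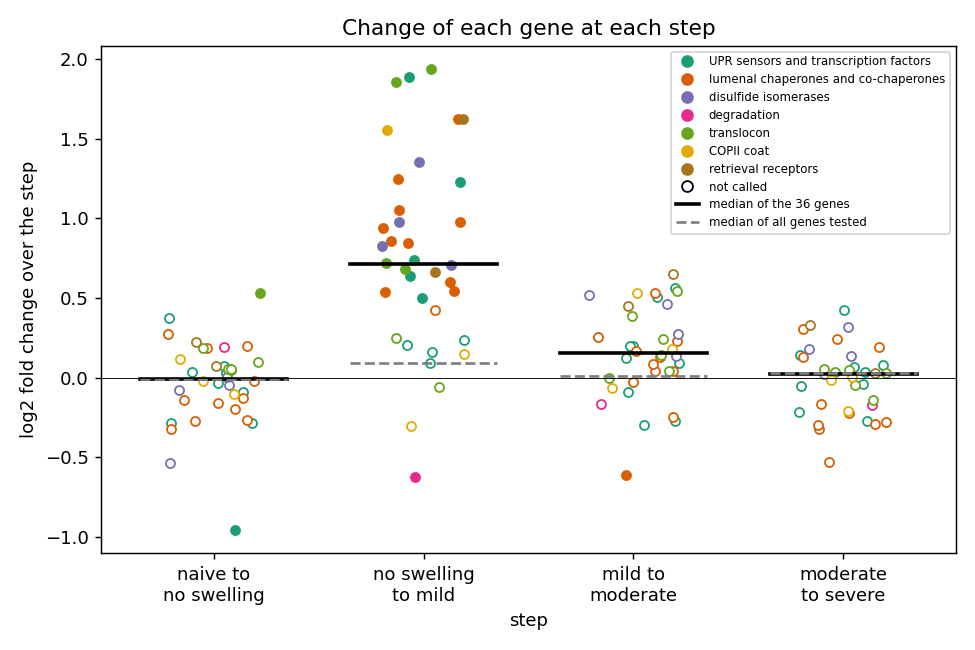
Log2 fold change of each of the 36 genes (points, coloured by role) over 4 successive steps of swelling; filled points passed the test at an adjusted p under 0.05. Solid bars mark the median of the 36 genes (-0.01, 0.72, 0.15 and 0.02) and dashed bars that of all genes tested; adjoining steps share a group.

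Severe and mild swelling were then compared directly, a comparison added after the steps had been seen. Of the 36 genes 3 rose, against 6.14% of all genes, and Dnajb9 fell, against 6.13%. The Dnajb9 change was -1.14 ± 0.14 (adjusted p = 0.000838), and this call was kept in all 18 alternatives. Kdelr3 rose by 0.98 ± 0.27, with overlapping arrays (adjusted p = 0.0308), Creb3l1 by 0.63 ± 0.19 (adjusted p = 0.0439) and Creb3l2 by 0.58 ± 0.17 (adjusted p = 0.0408). These 3 calls were fragile. Without mild replicate 1 the adjusted p was 0.086 for Kdelr3, 0.125 for Creb3l1 and 0.0577 for Creb3l2. Without mild replicate 2 the values were 0.152, 0.086 and 0.185, and without severe replicate 1 they were 0.142, 0.217 and 0.191. Leaving out severe replicate 3 removed Kdelr3 (0.106) and Creb3l2 (0.12), and leaving out mild replicate 3 or severe replicate 2 removed Creb3l1 (0.0629 and 0.0744) while raising the number of genes called to 8 in each case.

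Severe swelling was also compared with no swelling, both in immunized mice. Here 29 of the 36 genes rose and 3 fell, against 33.1% and 22% of all genes, with a median change of 0.91 against 0.14. Aligning array medians gave 23 higher and 6 lower. Pdia3 rose by 2.05 ± 0.23, while the genes that fell were again Herpud1 (-0.96 ± 0.12), Dnajb9 (-0.61 ± 0.14) and Sec23a (-0.58 ± 0.12). Of these, Dnajb9 and Sec23a changed sign with hybridization-control scaling, to 0.04 and 0.07.

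Other genes of the same pathways, listed by function, were read at severe swelling against naive, where 66 of 106 rose and 9 fell with a median change of 0.62, beside the 32.3% and 22.9% of all genes tested. Of 17 further folding enzymes 14 rose and 0 fell (median 1.44). The highest were Pdia5 (2.58 ± 0.30), a disulfide isomerase, and Fkbp7 (2.33 ± 0.29), an ER prolyl isomerase, and the lowest that passed were Txndc12 (0.70) and Dnajc10 (0.62), which reduces disulfides before degradation. Of 17 N-glycosylation genes 13 rose and 0 fell (median 0.94), led by Stt3a (2.44 ± 0.20), a catalytic subunit of oligosaccharyltransferase, and Tusc3 (1.74 ± 0.20), an accessory subunit; Prkcsh (0.57) and Dad1 (0.34) were the lowest that passed. These lists moved mainly upward, as the isomerases and most chaperones above did.

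In degradation 6 of 12 genes rose and 0 fell (median 0.36), with Edem1 (1.90 ± 0.19), which directs misfolded glycoproteins to disposal, and the lectin Os9 (1.35 ± 0.14) highest and Derl1 (0.73) and Erlec1 (0.36) lowest of those that passed. Herpud1 thus fell while 6 of these 12 genes of the same process rose and the rest did not pass the test. The difference between Herpud1 and these genes was not tested. Among 15 genes of unfolded protein response signalling 8 rose and 3 fell (median 0.40), a split that became 5 and 4 with array medians aligned and 9 and 0 with hybridization-control scaling. Nupr1 (1.92 ± 0.34), a stress-induced nuclear protein, and Asns (1.503), asparagine synthetase and a target of Atf4, rose most. Chac1 (-1.32 ± 0.22), a glutathione-degrading enzyme that is also an Atf4 target, and Wfs1 (-0.80 ± 0.17), an ER membrane protein, fell, and both lost the call with hybridization-control scaling (adjusted p = 0.0513 and 0.514).

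Of 16 targeting and signal peptidase genes 7 rose and 3 fell (median 0.16), or 5 and 3 with array medians aligned and 7 and 1 both with hybridization-control scaling and without naive replicate 2, and the share that fell was near that of all genes. Tram2 (2.06 ± 0.21), known for its part in collagen I synthesis, and its relative Tram1 (1.72 ± 0.19) were highest, and Sec61a2 (-1.44 ± 0.17), the paralog of Sec61a1, was lowest. Srprb, a subunit of the signal recognition particle receptor, fell by 0.41 and turned to 0.07 with hybridization-control scaling. Among 18 COPII and export genes 10 rose and 2 fell (median 0.41), or 8 and 4 with array medians aligned and 9 and 1 with hybridization-control scaling, from Sec31a (1.17 ± 0.16), an outer coat subunit, and Mcfd2 (1.05 ± 0.14), a cargo receptor subunit, down to Mia3 (-0.49 ± 0.10), the collagen receptor TANGO1, and Sar1b (-1.33 ± 0.18), the GTPase that starts the coat. Mia3 turned to 0.02 with hybridization-control scaling. Of 11 COPI and retrieval genes 8 rose and 1 fell (median 0.72), or 8 and 0 with that scaling, led by Kdelr1 (1.51 ± 0.33) and Copz2 (1.35 ± 0.19), with Arcn1 (0.34) the lowest that rose and Gbf1 (-0.40) falling. The Gbf1 call was lost on omitting any naive array or severe replicate 2 or 3.

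A list of matrix genes, 1 kind of secreted cargo, was read in the same way. All 10 fibrillar collagen and matrix genes listed were higher at severe swelling (median 1.83), beside 32.3% of all genes tested. Their changes ran from Col3a1 (0.76) and Col1a2 (0.94) to Col5a1 (2.82 ± 0.28) and Col5a2 (2.93 ± 0.29). A link between these genes and those of the ER was not tested.

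Markers of several cell types moved with the same groups. Summed signals of the 8 fibroblast markers ranged from 12302 to 12970 in naive, 9619 to 15476 in unswollen, 21760 to 28863 in mild, 23528 to 35160 in moderate and 31943 to 45050 in severe arrays, and all 8 rose at severe swelling. The 8 plasma cell markers summed to 312 to 338 in naive, 294 to 385 in unswollen, 577 to 1019 in mild, 1316 to 1878 in moderate and 1460 to 2050 in severe arrays. Of the 6 plasma cell markers tested only Sdc1 and Prdm1 rose, and both are also expressed by other cells. The antibody joining chain Jchain had means of 37 in naive and 69.4 in severe arrays (adjusted p = 0.169), and Tnfrsf17 and Pou2af1 were below the filter.

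All 7 macrophage markers (summed 1584 to 1774 in naive and 5393 to 7128 in severe arrays) and all 6 neutrophil markers (96.3 to 124.8 and 8778 to 12161) rose, as did all 5 cartilage markers (732 to 833 and 4010 to 6365). Summed muscle and fat markers went the other way. The 9 skeletal muscle markers summed to 74655 to 84899 in naive and 52069 to 73986 in severe arrays. Of these, 4 were lower (Myh2, Myh7, Myl2 and Mylpf) and the rest did not pass the test. Among the latter were Acta1 (0.10, adjusted p = 0.711) and Ckm (-0.03, adjusted p = 0.898). The 5 adipocyte markers measured summed to 11937 to 15426 and 4742 to 7069, also with 4 lower. Of the 2 osteoblast markers measured Alpl fell, and of 4 endothelial markers Pecam1 rose. No marker in these lists was at 0 on any array. As a gauge of RNA quality, the 3'/5' ratio of the actin controls went from 0.978 ± 0.0764 in naive to 1.25 ± 0.0294 in severe arrays. The ratio of the Gapdh controls moved less, from 0.852 ± 0.0322 to 0.891 ± 0.0668 in the same groups. The part of these cell types and of RNA quality in the changes above was not tested.

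Within groups many of the 36 genes were lowest on the same array, which was not counted for all genes. Severe replicate 2 was the lowest of its 3 arrays for 26 of the 36 genes, moderate replicate 3 for 21 and no-swelling replicate 3 for 19. Probe sets of a gene can disagree: of the 21 genes with several tested probe sets, all were called one way at severe swelling for 10, and 0 genes had calls in both directions.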

How the data were processed

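Affymetrix signal intensities were deposited by the authors as 1 linear value per probe set and array. They were MAS5 values (version not given in the sources used here), per the submitters' processing notes. The 2% trimmed mean was 150 on all 15 arrays. Probe sets were named from GEO's platform annotation: of 45101, 34945 had 1 gene symbol and 932 several. A gene took its probe set with the highest mean and was tested if that exceeded the array's 40th percentile on at least 3 arrays. Values were tested as log2(signal + 16) in limma 3.58.1 (R 4.3.3) with 5 group means, an intensity trend and Benjamini-Hochberg adjustment over 14314 genes; the procedure was tested on simulated data. Exact permutation of 3 against 3 arrays cannot go below p = 0.1 and was not used. The genes and all lists were chosen with earlier results of these data known. All measured members were named; from each further list, the 2 highest and 2 lowest changes that passed were named. Alternatives were pseudocounts 1 and 64, no filter or the 60th percentile, quantile normalization, aligned medians, scaling on 9 hybridization-control probe sets, averaging a gene's probe sets, no trend, only the groups compared, a replicate block, array weights and leaving out each array.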

Additional observations from a re-analysis of the deposited data

Results flagged for a closer look

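Dnajb9 differed between grades of swelling in its change from naive. It rose at mild and fell at severe swelling, and the direct comparison of severe with mild gave -1.14 ± 0.14 on the log2 scale (limma, adjusted p = 0.000838), with all 3 severe arrays below all 3 mild arrays.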

How the results depend on the processing

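Counts of these genes stayed within 1.5 times in both directions together for the comparisons of mild, moderate and severe with naive and of mild and severe with no swelling, under 12 alternatives that left out no array and under every single-array omission. For no swelling against naive, 2 genes were called, 1 with quantile normalization, 0 with hybridization-control scaling, 1 without the intensity trend, 1 with the replicate block and 0 to 1 without single arrays. For moderate against mild, 1 gene was called, 0 with array medians aligned, 0 with hybridization-control scaling, 0 with only the groups compared, 11 with array quality weights and 0 to 8 without single arrays. For severe against mild, 4 genes were called, 2 without the filter, 7 with the filter at the 60th percentile, 8 with quantile normalization, 1 with hybridization-control scaling, 2 without the intensity trend, 1 with only the groups compared, 19 with array quality weights and 1 to 8 without single arrays. Over all genes these counts also moved: 469 genes for no swelling against naive became 87 to 1169, 964 for moderate against mild became 12 to 4572, 1757 for severe against mild became 86 to 5212, and 5743 for mild against naive became 9287 with array quality weights. For severe against moderate, 0 genes became at most 2. The estimation of array weights stopped before it converged. The cause was not tested.

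Deviations of same-numbered arrays correlated from -0.506 to 0.334, with 5 of 30 over 0.1. All 3 pairs of no swelling with moderate swelling were over 0.1 (0.15, 0.334 and 0.191), groups that were not compared with each other; in no pair of groups that was compared were all 3 over 0.1, so the numbers were not taken to pair the samples. With the replicate block 29 genes were called at severe, 28 at moderate and 28 at mild swelling against naive. Signs turned at severe swelling against naive for Ssr3 (0.204 with quantile normalization, 0.452 with hybridization-control scaling, 0.089 with the mean of probe sets), Ddit3 (0.26 with that scaling, 0.291 with the mean of probe sets), and, with that scaling, Atf4 (0.172), Dnajb9 (0.098), Sec23a (0.044) and Trib3 (0.055). Against no swelling the scaling turned Dnajb9 (0.037) and Sec23a (0.068) at severe swelling and Herpud1 (0.143) at mild swelling, and Herpud1 also at mild swelling against naive (0.197). The scaling moved the median of all genes at severe swelling against naive from 0.11 to 0.53; quantile normalization gave 0.00 and aligned medians -0.05. At severe swelling against naive, aligned medians also removed the calls of Ern1, Dnajb11, Sdf2l1 and Ssr4 (adjusted p = 0.261, 0.138, 0.179 and 0.0653) and added lower calls of Atf4 and Ddit3, and quantile normalization removed the calls of Ern1, Sdf2l1 and Dnajb9 (0.155, 0.212 and 0.0702). Of 151 calls over the 9 comparisons, 108 were kept in every alternative. In some alternative 38 were lost with the sign unchanged, and 6 were lost with a change of sign. A call can be in both of these counts. Of the 29 at severe swelling against naive, 21 were kept in every alternative. Groups of 3 arrays limit the precision.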

Other observations

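In 3 pairs of paralogs of the pathway 1 gene rose and the other fell at severe swelling against naive. The pairs were chosen after their values were seen, and the differences between paralogs were not tested. Of the channel subunits, Sec61a1 rose (2.63 ± 0.25) and Sec61a2 fell (-1.44 ± 0.17, adjusted p = 3.36e-06). The vesicle GTPases differed in the same way, with Sar1a at 0.49 ± 0.14 (adjusted p = 0.00606, lost with array medians aligned) and Sar1b at -1.33 ± 0.18 (adjusted p = 1.37e-05). Of the inner coat subunits, Sec23b rose (0.71 ± 0.15, adjusted p = 0.000621) and Sec23a fell (-0.46 ± 0.12), the fall being absent with hybridization-control scaling. All 3 KDEL receptors rose, with Kdelr1 at 1.51 ± 0.33, Kdelr2 at 1.22 ± 0.18 and Kdelr3 at 2.84 ± 0.27.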
